A study of Mus musculus with 4 samples.

Results

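Rab GTPases are small switch proteins of membrane traffic, and 59 of their genes were described here in sorted cells of the embryonic mouse retina. The members were the genes whose annotated symbol was Rab followed by a digit, leaving out names of Rab-interacting proteins, GTPase-activating proteins and similar partners. This took 64 of the 22431 array features (probe sets) and 61 of 18920 genes, with the brightest feature by mean log2 intensity standing for a gene that had several. Of these 61 genes, Rab5if and Rab10os met the spelling of the rule but encode no Rab GTPase, and the counts below are over the other 59.

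The cells came from dissected retinas of BAC-Crx-EGFP mice on a 129Sv/Ev background at day E17.5 of embryonic development, and both fractions carried the transgene. It consists of a bacterial artificial chromosome in which the regulatory DNA of Crx, a homeodomain gene of photoreceptor precursors, drives enhanced green fluorescent protein (EGFP). Total RNA was taken from 2 samples of EGFP-positive and 2 samples of EGFP-negative cells, 1 array each. The negative fraction is a mixture of all retinal cells without the reporter signal, and the labels do not tell whether replicates were different animals, litters or sorts. The p-values therefore reflect only how far these 4 samples spread, which may be technical.

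A Rab protein is loaded with GTP by an exchange factor on the membrane of 1 particular compartment, binds effectors there (tethers, motors, fusion factors), and is switched off by a GTPase-activating protein. Lipid anchors added by a geranylgeranyl transferase, with the help of escort proteins, let it reach membranes, and GDI proteins extract it again. In photoreceptors such traffic serves the delivery of opsin-bearing carriers to the cilium and the outer segment, and the continuous release of synaptic vesicles at the ribbon synapse.

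The sort was reflected in the marker genes, while markers of cell types other than photoreceptors were not evenly spread. Crx read 3628.7 and 4758.8 on the positive arrays and 292.2 and 370.1 on the negative arrays (normalised intensity). In positive cells, 9 of 14 photoreceptor precursor markers were higher (limma, adjusted p under 0.05), against 0.82% of all features. Crx, whose regulatory DNA drives the sorted reporter, is among these 9. Summed intensities of the 12 amacrine and horizontal cell markers were 7200.8 to 9214.1 on the positive and 4991.7 to 5214.9 on the negative arrays. Those of the 10 measured progenitor markers were 20637.6 to 27394.4 and 37645.5 to 38483.5. Those of the 13 ganglion cell markers were 7400.6 and 12221.1 in positive replicates 1 and 2, and 5414.2 and 11482.8 in negative replicates 1 and 2. Pigment cell, microglial and erythroid lists had no member that passed the adjusted threshold, nor had the endothelial list, and their summed intensities spanned 908.2 to 1019.3, 1115.7 to 1280.7, 1375.5 to 1503.9 and 2067.4 to 5808.5 over the 4 arrays, in that order. The endothelial range came from Kdr (1107.0 to 4888.5), and the other 7 endothelial markers summed to 879.0 to 960.4. A smaller share of cells of a type and less RNA per cell cannot be told apart in such samples.

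No Rab gene was called different between the fractions in the main fit, which has no replicate block. With the replicate number as a block, 7 of the 59 were called, and 2877 of all 22431 features, as described near the end. The main limma fit over all 22431 features gave 0 of 59 Rab genes an adjusted p under 0.05, against 0.963% of all features (0.82% higher, 0.143% lower in positive cells). At an unadjusted p under 0.05 there were 13 Rab genes, 9 with a positive difference (EGFP-positive minus EGFP-negative; background 9.34%) and 4 with a negative one (background 9.83%). That is 22.0% of the members against 19.2% of all features, so the share for both directions together was near the background. By direction it was 15.3% against 9.34% for positive and 6.78% against 9.83% for negative differences, and this was not tested. With 1 array left out, the count was 15 genes (25.4%, against 22.2% of all features) without positive replicate 1, 7 (11.9% against 12.5%) without positive replicate 2 and 6 (10.2% against 10.5%) without negative replicate 1. It was 14 (23.7% against 14.0%) without negative replicate 2, and in each such fit the lone array of a fraction is assumed to vary like the pair of the other. The arrays of the fractions did not overlap for 24 of 59 Rab genes (40.7%), against 47.6% of all features.

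The differences were small. They ran from -0.61 for Rab13 to 0.73 for Rab3c on the log2 scale, with a median of 0.05 over the 59 genes against -0.01 over all features, and 38 genes (64.4%) lay above 0 against 47.8% of all features. The 95% intervals, unadjusted for the number of genes, excluded a 2-fold difference in either direction for 56 genes. For the other 3, Rab3c, Rab6a and Rab15, the interval reached past 2-fold on the positive side, with upper bounds of 1.17, 1.14 and 1.11. The plot of differences by role shows every gene with its error.

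**Figure D1:**
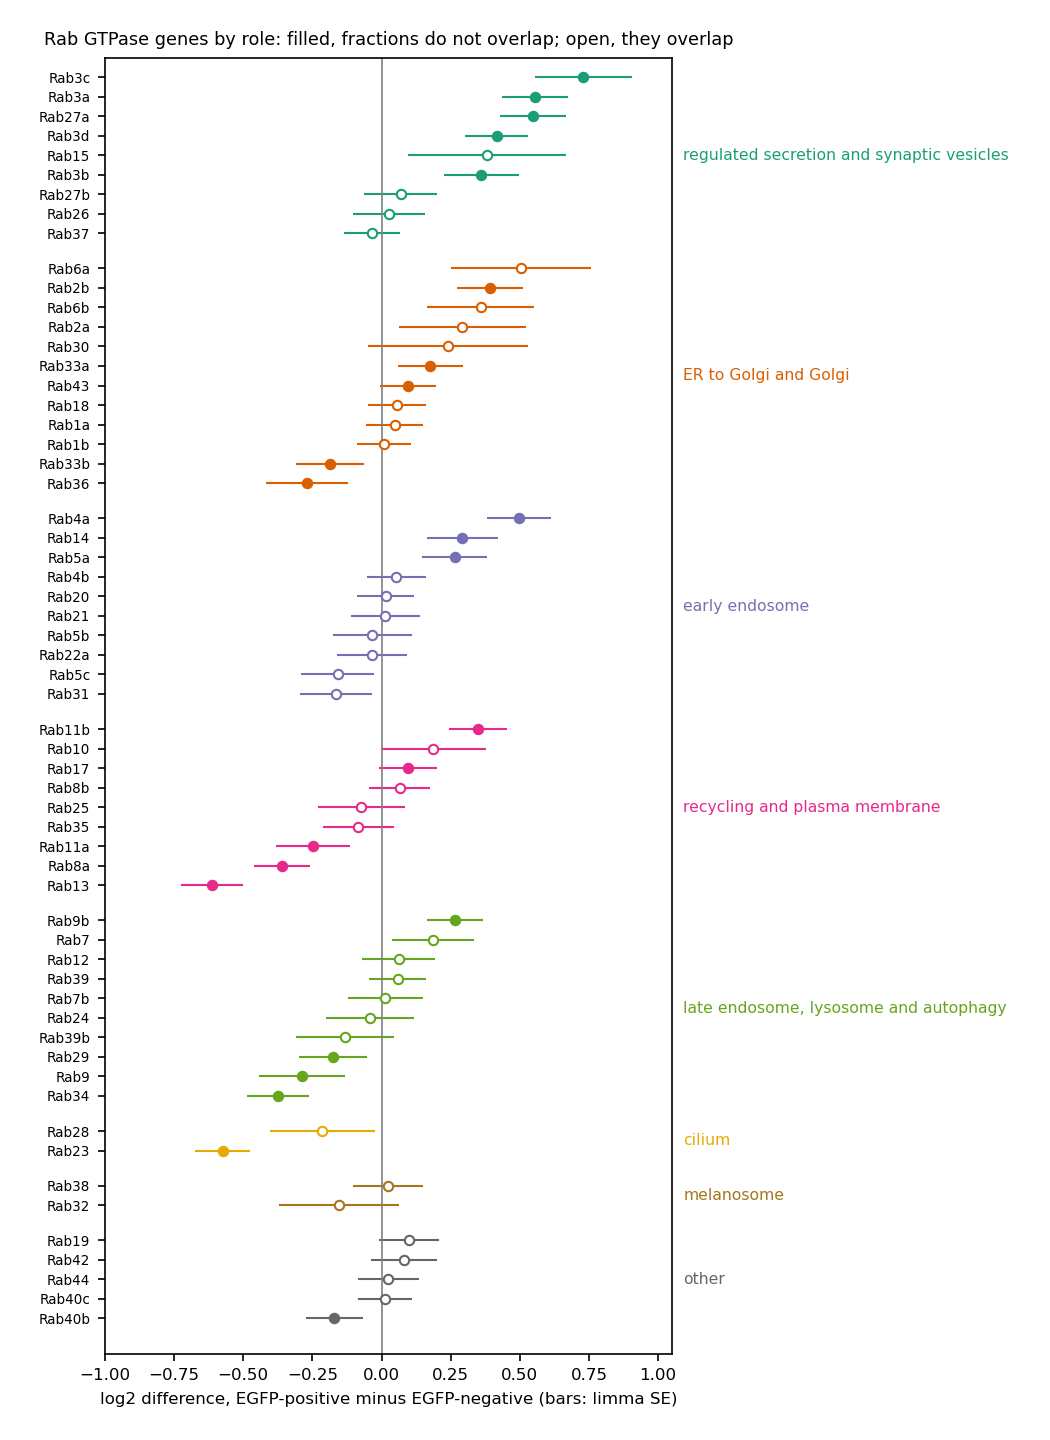
Log2 difference, EGFP-positive minus EGFP-negative, of each of the 59 Rab GTPase genes (points; bars are limma standard errors, n = 2 arrays per fraction), grouped by the compartment each Rab is known for. Filled points are genes whose positive and negative arrays do not overlap. All points lie between -0.61 (Rab13) and 0.73 (Rab3c), and no gene passed an adjusted p of 0.05 in the main limma fit, without a replicate block.

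Upstream sequences of members at both ends of this range are shown to give the regulatory context of genes that the sort by a Crx reporter could bear on. Each stretch holds the 250 bases before a transcript start that RefSeq lists for the gene (GRCm38.p6), read 5′ to 3′ on the gene's strand. Capitals mark TAATCC, the core that Crx and Otx factors bind, and GGGCGG, the GC box, on either strand (GGATTA and CCGCCC are their reverse complements). The first 4 belong to genes of regulated secretion with positive differences, the next pair to the genes with the most negative differences, and the last to Rab43, which has both motifs.
Rab3a, chr8:70754453-70754702, plus strand: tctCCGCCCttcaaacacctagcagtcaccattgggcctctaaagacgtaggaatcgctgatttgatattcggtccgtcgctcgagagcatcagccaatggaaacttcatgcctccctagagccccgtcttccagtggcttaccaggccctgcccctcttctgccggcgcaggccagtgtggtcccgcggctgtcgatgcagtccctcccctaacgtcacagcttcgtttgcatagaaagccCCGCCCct
Rab3b, chr4:108878820-108879069, plus strand: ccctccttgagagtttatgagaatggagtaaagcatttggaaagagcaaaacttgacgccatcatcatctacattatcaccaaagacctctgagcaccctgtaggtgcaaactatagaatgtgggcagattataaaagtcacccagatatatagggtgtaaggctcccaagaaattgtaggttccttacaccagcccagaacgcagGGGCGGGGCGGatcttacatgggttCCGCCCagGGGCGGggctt
Rab3d, chr9:21918184-21918433, minus strand: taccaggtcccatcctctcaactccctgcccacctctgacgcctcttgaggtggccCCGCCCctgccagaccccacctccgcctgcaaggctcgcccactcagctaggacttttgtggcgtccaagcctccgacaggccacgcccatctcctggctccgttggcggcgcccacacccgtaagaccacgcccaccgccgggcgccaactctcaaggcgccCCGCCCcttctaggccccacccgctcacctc
Rab27a, chr9:73044560-73044809, plus strand: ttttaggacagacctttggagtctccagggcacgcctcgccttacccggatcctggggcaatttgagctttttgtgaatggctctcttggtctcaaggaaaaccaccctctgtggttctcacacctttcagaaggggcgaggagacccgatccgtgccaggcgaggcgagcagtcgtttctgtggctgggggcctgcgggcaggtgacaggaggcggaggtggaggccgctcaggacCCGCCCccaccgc
Rab13, chr3:90213465-90213714, plus strand: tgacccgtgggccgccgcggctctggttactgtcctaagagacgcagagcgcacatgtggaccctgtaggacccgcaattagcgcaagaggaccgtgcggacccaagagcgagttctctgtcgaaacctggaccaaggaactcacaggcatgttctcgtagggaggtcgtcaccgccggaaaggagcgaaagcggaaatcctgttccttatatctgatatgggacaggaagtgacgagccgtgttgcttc
Rab23, chr1:33719646-33719895, plus strand: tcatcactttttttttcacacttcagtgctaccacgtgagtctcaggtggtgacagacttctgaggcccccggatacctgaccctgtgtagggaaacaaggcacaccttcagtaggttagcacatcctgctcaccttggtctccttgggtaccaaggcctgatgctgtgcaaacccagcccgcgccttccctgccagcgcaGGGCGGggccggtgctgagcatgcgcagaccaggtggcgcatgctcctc
Rab43, chr6:87812165-87812414, minus strand: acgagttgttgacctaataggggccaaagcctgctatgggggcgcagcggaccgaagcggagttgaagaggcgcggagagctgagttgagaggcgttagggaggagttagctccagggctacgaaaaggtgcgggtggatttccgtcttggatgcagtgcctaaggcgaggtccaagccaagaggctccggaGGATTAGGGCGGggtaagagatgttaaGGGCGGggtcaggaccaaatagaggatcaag

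The listed window of Rab3c lies inside the span of the gene and is not printed. None of the first 6 sequences holds TAATCC. For genes with several listed windows (Rab3a, Rab27a, Rab13, Rab23 and, with 4, Rab43) only the first listed is printed. The further windows of Rab3a, Rab27a, Rab13 and Rab23 lie inside the span of the gene and hold no TAATCC. Those of Rab13 and Rab23 hold a GC box. Windows could be matched for 48 of the 59 genes (60 windows, as some genes have several starts), and TAATCC on either strand occurred in 3 of these windows, from Rab42 and Rab43, against 6.25% of 32851 windows of all genes. A pair of overlapping Rab43 windows held the same match, so these were 2 distinct positions. Rab42 and Rab43 had log2 differences of 0.08 and 0.10. The GC box occurred in 40 of the 60 windows, against 32.7% of all windows. The overlapping Rab43 windows shared their GC boxes too, windows of the same gene are not independent, and the difference was not tested. A motif match is a description of the letters and does not show binding, and its absence says only that these letters are not in this window.

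Genes of regulated secretion and synaptic vesicles had the most positive differences among the roles. Of 9 such genes 8 lay above 0, with a median log2 difference of 0.38, and in 5 of them both positive arrays lay above both negative ones, against 22.3% of all features in that direction. None passed the adjusted threshold, and 5 had an unadjusted p under 0.05, all with positive differences (background 9.34%). The difference between the roles, which were chosen with earlier results of these data known, was not tested. The summed level of the amacrine and horizontal cell markers was likewise higher on both positive arrays (9 of 12 markers without overlap), and the part of those cells in the Rab values was not tested.

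Rab3 proteins sit on synaptic and secretory vesicles and prepare them for release, and all 4 paralogues were measured. Rab3c read 313.6 and 353.4 on the positive arrays and 172.1 and 234.3 on the negative ones. The positive arrays thus lay above the negative ones, although negative replicate 2 was nearer to them than replicate 1 (log2 difference 0.73 ± 0.18, SE, n = 2 per fraction, 1.66-fold, limma adjusted p = 0.121).

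Rab3a, the main Rab of synaptic vesicles in the brain, read 371.9 and 316.7 against 231.3 and 235.9. The negative arrays were nearly equal and the spread lay in the positive ones (0.56 ± 0.12, 1.47-fold, adjusted p = 0.101). Rab3d, known from exocrine granules, read 189.1 and 216.8 against 149.5 and 154.0 (0.42 ± 0.11, adjusted p = 0.147). Rab3b, found on vesicles of some neurons and endocrine cells, read 271.5 and 289.2 against 196.6 and 242.2 (0.36 ± 0.14, adjusted p = 0.245). For both genes the fractions were separate, with a gap for Rab3b that was small beside the distance between the negative replicates.

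Rab27a, which docks secretory granules and melanosomes at the cell cortex, read 172.0 and 163.1 on the positive arrays and 123.2 and 106.6 on the negative ones (0.55 ± 0.12, 1.46-fold, adjusted p = 0.101). Its paralogue Rab27b read 114.2 and 106.6 against 115.7 and 95.5, so its fractions overlapped (0.07 ± 0.13). Rab15, an endosomal Rab of neurons that was placed in this list, read 269.3 and 354.0 against 180.8 and 310.6. Here replicate 2 was the higher array in both fractions and the fractions overlapped (0.38 ± 0.29, adjusted p = 0.580). Rab26, of vesicle and lysosome traffic, and Rab37, of granule release, differed by 0.03 and -0.03.

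**Figure D2:**
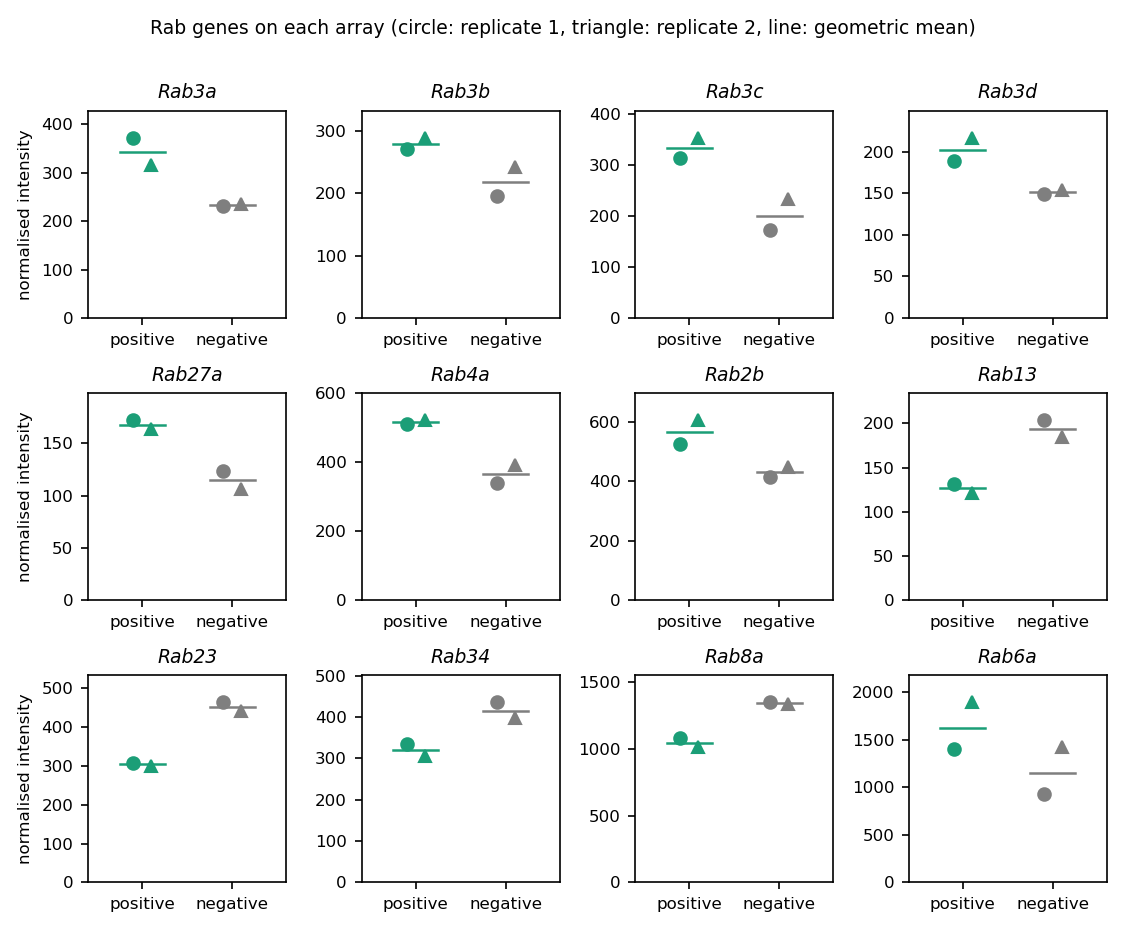
Normalised intensity (linear axis from 0) of 12 Rab genes on each of the 4 arrays; circles are replicate 1, triangles replicate 2, and lines the geometric mean of a fraction. The positive arrays lie above the negative ones for the 4 Rab3 genes, Rab27a, Rab4a and Rab2b and below them for Rab13, Rab23, Rab34 and Rab8a, while for Rab6a negative replicate 2 (1424.1) lies above positive replicate 1 (1399.2).

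Among Rabs of the endoplasmic reticulum and Golgi, 10 of 12 genes lay above 0, with a median of 0.14. None passed the adjusted threshold, and 1 of 12 had an unadjusted p under 0.05 (8.33%, against 19.2% of all features). That gene was Rab2b, of traffic between the endoplasmic reticulum and Golgi, which read 526.8 and 606.2 against 414.0 and 448.3, with separate fractions (0.39 ± 0.12, adjusted p = 0.175). Its paralogue Rab2a differed by 0.29 ± 0.23.

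Rab6a, a Golgi Rab that in photoreceptors also marks post-Golgi carriers of rhodopsin, read 1399.2 and 1892.0 on the positive arrays and 925.2 and 1424.1 on the negative ones. Replicate 2 was well above replicate 1 in both fractions, and the fractions overlapped (0.50 ± 0.25, adjusted p = 0.375). Rab6b, the neuronal form, read 505.3 and 597.0 against 361.6 and 507.2, with the same order of replicates and a narrow overlap (0.36 ± 0.19, adjusted p = 0.411).

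Rab1a, needed for transport from the endoplasmic reticulum to the Golgi, read 2573.6 and 2799.0 against 2617.8 and 2578.9 (0.05 ± 0.10), and its sign turned without positive replicate 2. Rab18, of the endoplasmic reticulum and lipid droplets, read 609.6 and 582.5 against 599.6 and 548.3 (0.06 ± 0.11), and its sign turned without negative replicate 2. Both genes thus differed by less than their error.

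The exceptions in sign were Rab36 and Rab33b. Rab36, a Golgi-associated Rab, read 278.7 and 217.8 on the positive arrays and 287.7 and 306.8 on the negative ones (-0.27 ± 0.15, adjusted p = 0.423). Rab33b, which acts at the Golgi and in autophagy, read 261.5 and 306.3 against 334.0 and 310.4 (-0.19 ± 0.12, adjusted p = 0.520). Their fractions were separate by a small margin. The remaining genes of this role were Rab30 (0.24), Rab33a (0.18), Rab43 (0.10) and Rab1b (0.01).

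Early endosomal Rabs had a median difference of 0.01 over 10 genes, 6 of them above 0. Rab4a, of the fast route from endosomes back to the surface, read 509.2 and 521.8 on the positive arrays and 340.2 and 392.9 on the negative ones. The positive arrays were nearly equal and lay clearly above the negative ones (0.50 ± 0.12, 1.41-fold, adjusted p = 0.116), which made it the 1 gene of this role with an unadjusted p under 0.05. Rab5a, which drives fusion of early endosomes, read 2174.5 and 2533.4 against 1923.5 and 1986.1 (0.26 ± 0.12, adjusted p = 0.321), again without overlap. Rab14 differed by 0.29, Rab4b by 0.05, Rab20 by 0.01, Rab21 by 0.01, Rab5b by -0.03, Rab22a by -0.04, Rab5c by -0.16 and Rab31 by -0.17.

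Rabs of the recycling endosome and the plasma membrane were divided, with 4 of 9 above 0 and a median of -0.07. At an unadjusted p under 0.05 there were 3 (33.3%, against 19.2% of all features). Rab11b is among these 3 and among the 4 through a feature whose value is uncertain, as described below. Rab13, which serves tight junctions of epithelia, read 131.9 and 121.4 on the positive arrays and 203.6 and 184.1 on the negative ones. It was the most negative of the 59 Rab differences, with fractions far apart compared with the distance between replicates (-0.61 ± 0.11, 1.53-fold toward the negative fraction, limma adjusted p = 0.0836). Rab8a, which brings membrane and rhodopsin carriers toward the cilium, read 1082.4 and 1016.1 against 1351.3 and 1342.2 (-0.36 ± 0.10, adjusted p = 0.149). Both negative arrays lay above both positive ones, whereas its paralogue Rab8b differed by 0.07 ± 0.11 with overlapping fractions.

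Rab11a, of the recycling endosome, read 843.4 and 918.9 on the positive arrays and 951.1 and 1149.6 on the negative ones (-0.25 ± 0.13, adjusted p = 0.410), with a small gap between the fractions. Rab11b, the neuronal paralogue, gave different answers by feature. The brighter feature, 10465683, read 3072.2 and 3075.7 against 2306.7 and 2527.2 (0.35 ± 0.10, adjusted p = 0.169). The other, 10450034, read 249.6 and 283.1 against 281.0 and 312.0, with overlap and a difference of the opposite sign (-0.16 ± 0.12, adjusted p = 0.594).

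In the numbering of the platform, which follows the chromosomes, 10 of the 10 nearest named features of 10450034 belonged to the chromosome of Rab11b, and 0 of 10 did for the brighter feature. The brighter features of Rab2a and Rab5b, taken by the rule, also had 0 of 10 neighbours on the chromosome of their gene, against 7 or more of the 9 or 10 named neighbours for every other Rab GTPase feature. The other Rab2a and Rab5b features differed by 0.25 and -0.05, with the same sign as those taken (0.29 and -0.03). Which copy of the sequence such a feature reads was not tested, so the values taken for Rab11b, Rab2a and Rab5b are uncertain. The brighter Rab11b feature is counted among the genes with an unadjusted p under 0.05 and among those without overlap. The ratios of Rab11a to Rab11b and of Rab5b to Rab5c are among the 12 that separate the fractions below. The replicate shifts given for Rab2a below also come from its brighter feature. The other Rabs of this role were Rab10 (0.19), Rab17 (0.10), Rab25 (-0.07) and Rab35 (-0.08).

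Late endosomal, lysosomal and autophagic Rabs had a median of -0.01 over 10 genes, 5 above and 5 below 0. Rab34, which positions lysosomes and takes part in building the primary cilium, read 335.7 and 306.4 on the positive arrays and 435.8 and 396.9 on the negative ones. The negative arrays were the higher ones throughout (-0.37 ± 0.11, adjusted p = 0.169). Rab9, of the path from late endosomes to the Golgi, read 174.2 and 225.7 against 253.3 and 231.3 (-0.29 ± 0.16, adjusted p = 0.413), with positive replicate 2 close to negative replicate 2. Its paralogue Rab9b differed in the other direction, with 222.6 and 237.4 against 189.4 and 192.8 (0.27 ± 0.10, adjusted p = 0.244).

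Rab7, the Rab of fusion with lysosomes, read 717.5 and 810.1 on the positive arrays and 749.6 and 598.6 on the negative ones, which overlapped (0.19 ± 0.15, adjusted p = 0.605). The rest of this role were Rab12 (0.06), Rab39 (0.06), Rab7b (0.01), Rab24 (-0.04), Rab39b (-0.13) and Rab29 (-0.18).

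Of the pair listed for the cilium, Rab23 had the lowest adjusted p of any Rab gene. Rab23, which restrains Hedgehog signalling at the cilium, read 308.5 and 299.0 on the positive arrays and 463.7 and 441.4 on the negative ones. The replicates were close within each fraction and the fractions well apart (-0.57 ± 0.10, 1.49-fold toward the negative fraction, limma adjusted p = 0.0785). Rab28, a Rab of cone outer segments whose loss causes cone-rod dystrophy, read 480.2 and 637.4 against 572.0 and 719.6, so the fractions overlapped and replicate 2 was the higher in each (-0.21 ± 0.19, adjusted p = 0.649). Progenitor marker levels were lower on both positive arrays as well, with 7 of 10 progenitor markers separate in that direction against 25.3% of all features, and their part in the values of Rab13, Rab23, Rab34 and Rab8a was not tested.

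Rab32 and Rab38, which build melanosomes, showed no separation. Rab32 read 119.7 and 118.3 on the positive arrays and 164.4 and 106.6 on the negative ones, with negative replicate 1 standing above the other 3 arrays (-0.15 ± 0.22), and its sign turned without that array. Rab38 read 91.0 and 104.8 against 90.6 and 102.1 (0.02 ± 0.13), and its sign turned without positive replicate 2 or negative replicate 1. The pigment enzyme gene Tyr read 53.7 to 62.4 on the 4 arrays, and 4 of 10 pigment cell markers had a mean at or above the 25th percentile of all features. Among Rab genes, 56 of 59 did, against 75.0% of all features, and Rab38, Rab7b and Rab42 did not. Of the genes with no assigned role, Rab19 differed by 0.10, Rab42 by 0.08, Rab44 by 0.02, Rab40c by 0.01 and Rab40b by -0.17.

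Paralogues with the same number did not all differ by the same amount. The log2 ratio of Rab8a to Rab8b within an array was 0.14 and 0.22 on the positive arrays and 0.63 and 0.58 on the negative ones. The ratio of Rab27a to Rab27b was 0.59 and 0.61 against 0.09 and 0.16, that of Rab4a to Rab4b was -0.02 and 0.17 against -0.47 and -0.26, and that of Rab9 to Rab9b was -0.35 and -0.07 against 0.42 and 0.26. In each of these pairs the ratio separated the fractions, as it did in 12 of all 21 same-numbered pairs (57.1%, some of which share a gene). Among single features 47.6% separated the fractions, but that share is no background for ratios. The share among ratios of other gene pairs was not computed. The percentile limit given above for dim genes was a mean log2 intensity of 6.75. Rab27b lay at it (6.75 over all arrays, 6.72 on the negative ones). Rab7b, whose ratio with Rab7 is also among the 12, lay below it at 6.39. Whether genes this dim could show a difference was not tested, so these ratios may mostly repeat the differences of Rab27a and Rab7. The 4 pairs were picked after their values were seen, and an exact permutation test of 2 against 2 arrays cannot give a two-sided p below 0.333. Ratios of Rab1a to Rab1b overlapped between the fractions, as did those of Rab6a to Rab6b and of Rab3a to Rab3b.

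Replicates differed from each other in many Rab genes, and in the same direction in both fractions. Replicate 2 was the higher array in both fractions for 27 of 59 Rab genes (45.8%, against 29.0% of all features) and the lower one in both for 20 (33.9%, against 32.4%). Among genes higher in replicate 2 of both fractions, the largest mean log2 shifts were those of Rab30, a Golgi Rab (0.80 for the positive pair and 0.39 for the negative pair), Rab15 (0.39 and 0.78), Rab6a (0.44 and 0.62) and Rab2a (0.56 and 0.37). Both shifts exceeded the difference between the fractions for Rab30, Rab15 and the feature taken for Rab2a, and for Rab6a the shift of the negative pair did. The feature taken for Rab2a is among those called uncertain above. The other Rab2a feature read 1374.1 and 1803.6 on the positive and 1210.4 and 1441.3 on the negative arrays. It had smaller shifts in both pairs beside a difference of 0.25, so the place of Rab2a among the largest shifts is uncertain. Ganglion cell markers moved the same way, with 11 of 13 higher in replicate 2 of both fractions and median shifts of 0.70 and 1.14, and their part in the Rab values was not tested.

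**Figure D3:**
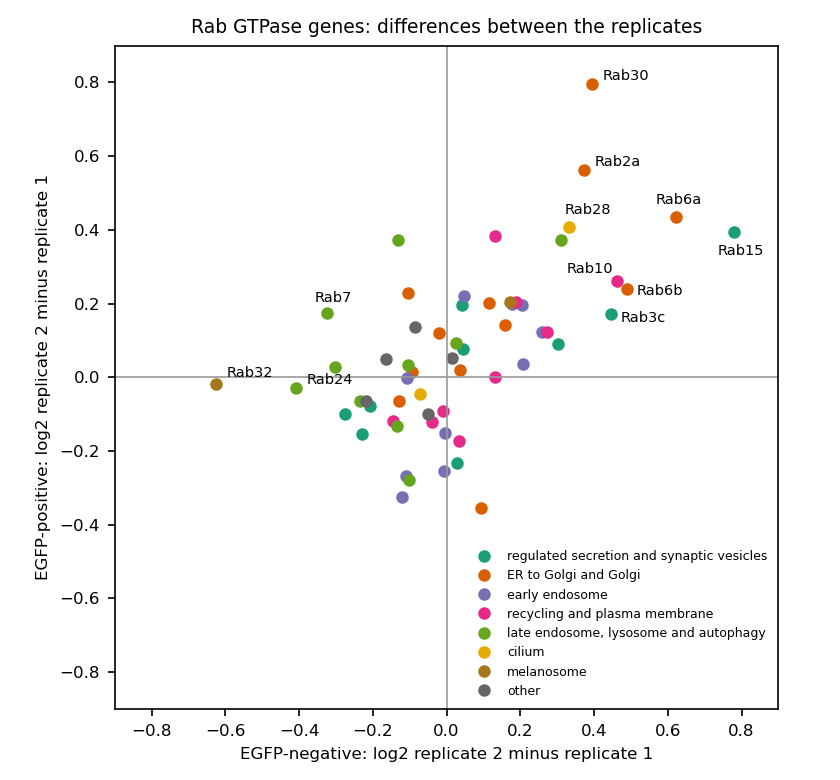
Log2 difference of replicate 2 minus replicate 1 in the EGFP-negative (horizontal) and EGFP-positive (vertical) fraction for the 59 Rab GTPase genes, 1 point per gene, coloured by role. Upper right are the 27 genes that were higher in replicate 2 of both fractions, among them Rab30, Rab2a, Rab6a and Rab15; Rab32 lies far left, as negative replicate 1 (164.4) was above the other 3 arrays.

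Genes of proteins that switch Rabs on and off or act downstream of them were taken from lists of 112 genes, of which 104 were measured here. Of these, 3 were higher in the positive fraction and 0 were lower (limma, adjusted p under 0.05), or 2.88% against 0.963% of all features called, and 27 (26.0%) had an unadjusted p under 0.05 against 19.2% of all features, 22 of them positive. Their median log2 difference was 0.10, and 73 of 104 (70.2%) lay above 0 against 47.8% of all features. The partner lists were chosen with earlier results of these data known, so these shares are a description only.

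Madd, the exchange factor of Rab3 and Rab27 proteins, read 969.1 and 1059.4 on the positive and 501.1 and 458.7 on the negative arrays. The positive arrays were about 2.11-fold the negative ones, far beyond the distance between replicates (log2 difference 1.08 ± 0.11, adjusted p = 0.0293). It was the 1 called gene among 22 exchange factors, whose median was 0.13.

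Of 31 genes listed for GTPase-activating proteins, of the TBC family and related, 2 were called. The list does not tell which members act on a Rab, and their activity was not measured. Tbc1d24, a TBC-domain protein of synaptic vesicle traffic, rose from 338.8 and 341.9 in the negative to 713.1 and 720.0 in the positive fraction, with replicates almost equal (1.07 ± 0.10, adjusted p = 0.0227). Tbc1d8, another TBC-domain protein, read 522.3 and 482.6 against 246.0 and 255.9 (1.0 ± 0.10, adjusted p = 0.0295). The median of this list was 0.12, and 10 of its members had a positive difference at an unadjusted p under 0.05 (background 9.34%) against 1 with a negative one (background 9.83%).

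These 3 calls depended on the arrays used. Without positive replicate 2, Tbc1d24 alone was called, with an adjusted p of 0.0493. Without negative replicate 1 or 2, none was, with adjusted p from 0.197 to 0.264, and the log2 differences of the 3 genes stayed between 0.97 and 1.14 there. The number of features called in the whole table also changed with the array left out, so such a change was not particular to these genes.

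Among 43 effectors none was called, and the median was 0.04. Rims2, an active-zone scaffold that binds Rab3, read 747.4 and 1162.8 on the positive arrays and 381.2 and 434.2 on the negative ones. Its positive arrays were far apart from each other yet both above the negative ones (1.2 ± 0.23, adjusted p = 0.0850), and without positive replicate 1 the log2 difference was 1.52. The adjusted p of that fit, 0.00992, rests on 1 positive array, the higher of the pair, and on the spread of the negative arrays, and over the 4 fits with 1 array left out the adjusted p ran from 0.00992 to 0.397. Myo7a, a motor linked to Rab27a in pigment and photoreceptor cells, differed by 0.53 ± 0.18 (adjusted p = 0.203).

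The list for lipid anchoring and the handling of inactive Rabs, which also holds the lipid transferase gene Fnta (0.17), had no call among 8 genes and a median of -0.07. Chm, the escort protein whose loss causes choroideremia, read 920.2 and 1182.9 against 664.5 and 820.5, with separate fractions and replicate 2 higher in both (0.50 ± 0.17, adjusted p = 0.217). Rabggtb, the catalytic subunit of the geranylgeranyl transferase, read 1049.7 and 889.7 against 1260.8 and 1236.8 (-0.37 ± 0.12, adjusted p = 0.195).

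**Figure D4:**
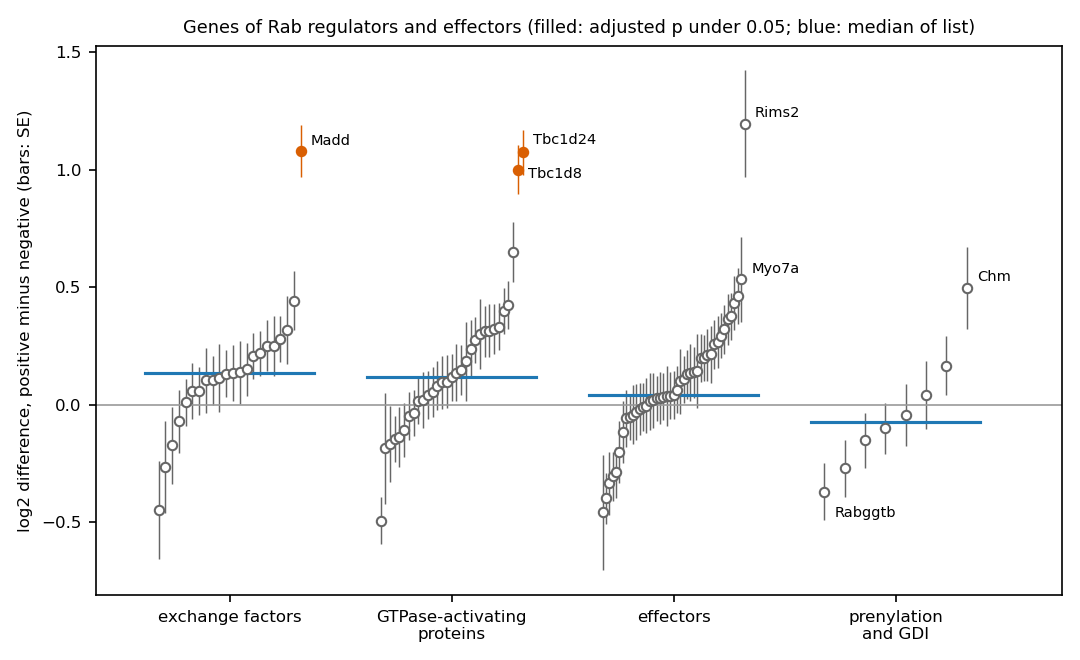
Log2 difference, EGFP-positive minus EGFP-negative, of 104 genes of Rab regulators and effectors in 4 lists (points; bars are limma standard errors, n = 2 arrays per fraction; blue lines are list medians). Filled points are the 3 genes with an adjusted p under 0.05, Madd (1.08), Tbc1d24 (1.07) and Tbc1d8 (1.0); Rims2 lies higher (1.2) with a wider error and is not called.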

How the data were processed

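The deposited values are normalised intensities on a linear scale, 1 column per array, made by the authors with RMA (background correction, quantile normalisation and probe summarisation), which the submitters' processing notes name together with genome build mm8. The sources used here give no version, probe-set level or filter. The linear scale was inferred from the range of 18.9 to 36625.2. Array medians were 218.4 to 222.9, and log2 was taken without a pseudocount. The number of arrays limits the precision.

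Features took gene symbols from the platform annotation (1 symbol for 20176 features, several for 412, none for 1843). All 22431 were fitted in limma 3.58.1 (R 4.3.3, lmFit and eBayes without trend, no replicate block), two-sided, with Benjamini-Hochberg adjustment over all features and a threshold of 0.05. Errors are moderated standard errors with 5.26 degrees of freedom, and the script was tested on simulated data. All 61 members matched a RefSeq gene number. Promoter windows came from RefSeq, assembly GRCm38.p6.

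The members, the roles, 4 partner lists and 8 marker lists were chosen with earlier results of these data known. The rule for full values took the 8 Rab genes with the largest difference in each direction among those without overlap, 17 fixed genes, and genes whose features differ in sign. Other Rab genes named with values were chosen after they were seen. Of each partner list it took up to 4 called genes, or the 2 largest differences where none was called. List members without a value are not analysed here. Alternatives were another variance model, the replicate number as a block, median centring, a second quantile normalisation, removal of features below the 25th percentile, log2(value + 16), the mean of a gene's features, leaving out each array, and, added after seeing the data, the other feature of genes with several.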

Additional observations from a re-analysis of the deposited data

How the results depend on the processing

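Over the alternatives run, 0 Rab genes were called except in the fit with the replicate number as a block, which called 7: Rab3c, Rab3a, Rab27a, Rab4a and Rab6a higher and Rab13 and Rab23 lower, with adjusted p from 0.0155 to 0.0329. That fit called 2877 of all 22431 features and 13 of the 104 partner genes, against 216 and 3 without the block. The called shares of the 59 Rab genes and of the partner genes were thus not above that of all features. Deviations from the fraction mean correlated at 0.481 between arrays of the same number, but with 2 pairs and no label for a shared litter or sort the arrays share only a number. Leaving out 1 array gave 0 to 1429 called features, 0 to 5 called partner genes and 0 called Rab genes; the cause was not tested. The median Rab difference was 0.02 to 0.07 under every alternative. Among the 25 Rab genes with full values, the sign turned when 1 array was left out for Rab1a (-0.014 to 0.11; negative without positive replicate 2), Rab38 (-0.080 to 0.12; negative without positive replicate 2 and, at -0.064, without negative replicate 1), Rab32 (-0.47 to 0.16; positive without negative replicate 1) and Rab18 (-0.0089 to 0.12; negative without negative replicate 2), and for Rab11b with its other feature (-0.16). These 5 genes kept their sign under the other settings that gave a value (Rab38 has none with dim features left out).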

Other observations

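Rab5if and Rab10os, which the spelling of the rule takes in although they encode no Rab GTPase, did not pass the adjusted threshold. Rab5if, named for an interaction with Rab5, read 851.5 and 627.1 on the positive and 879.5 and 865.9 on the negative arrays (log2 difference -0.26 ± 0.17, limma adjusted p = 0.510). Rab10os, a transcript annotated on the strand opposite to Rab10, read 317.3 and 289.5 against 303.7 and 290.8 (0.03 ± 0.11, adjusted p = 0.946), and Rab10 itself read 1822.5 and 2182.9 against 1493.6 and 2056.7 (0.19 ± 0.19).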
